A study of Mus musculus with 2 samples.

Results

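The transcripts of the proteasome, the protease that degrades ubiquitin-tagged proteins, were compared between LPS-stimulated macrophages with and without PAC1. The genes were those whose array symbol begins with Psma, Psmb, Psmc, Psmd, Psme, Psmf or Psmg and a number, and whose probe set carried that symbol alone. This gave 56 probe sets of 47 genes, out of 8220 genes on the array with a probe set of their own. For 45 of the 47 a role in the proteasome is known. The other 2 share only the name, Psmc3ip, a meiotic recombination factor that neither array detected above the floor used here, and Psme3ip1, which encodes a protein that binds the activator encoded by Psme3. A further probe set carried the symbols Psme2 and Psme2b together and stayed out.

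Both groups were macrophages of age-matched littermate mice, drawn to the peritoneum with 2 ml of 3% thioglycollate, a sterile irritant, 4 days before lavage and then purified by adherence. The first group was Pac1-/- and the second Pac1+/+ (wild type), and both received 100 ng/ml LPS, the bacterial ligand of Toll-like receptor 4, for 6 hours. PAC1, the product of Dusp2, is a nuclear phosphatase of MAP kinases, and the time was chosen by the submitters with inflammatory genes in mind. Each genotype had 1 Affymetrix array, so no difference could be tested or checked against replicates, and values are given as sizes alone. Untreated cells were not analysed here. The sources used here do not state how the allele was made or how many mice gave each RNA.

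Signals are MAS5 intensities without a physical unit, and the median signal was 38 for the knockout and 35 for the wild type. The floor was the median of all signals, 36.4, and a gene entered the comparison if it exceeded this on at least 1 array. Dusp2 itself was at 76.8 against 333, or 23.1% of its wild-type signal. All 10 macrophage markers on a fixed list were above the floor on both arrays, with summed signals of 35070 against 32147. Of their log2 ratios of knockout over wild type, 7 were above 0 and 3 below, with Msr1 lowest at 1.59-fold lower. Of the markers of other cells, 6 of 8 for T and NK cells and 5 of 10 for neutrophils were below the floor on both arrays. The 5 measured neutrophil markers summed to 860 against 932, with 2 log2 ratios above 0 and 3 below. On at least 1 array, 7 of 7 B cell, 6 of 8 dendritic cell and 4 of 8 mast cell and basophil markers were above the floor, with sums of 649 against 717, 4093 against 3811 and 997 against 1081. Bright genes weigh most in such sums, and the median log2 ratios, in the same order, were −0.15, −0.09 and 0.18. Of the mast cell and basophil markers 3 were above 0, with Tpsb2 1.66-fold higher, and Hdc was 1.36-fold lower. The 9 measured stromal and mesothelial markers summed to 1422 against 1779. Of these, 3 were 1.5-fold or more lower in the knockout, where 5.72% of all genes were, with Acta2 lowest at 2.55-fold lower. Another 3 were above 0 (Dcn 0.37, Lum at least 0.37 and Col1a2 0.09). Of the B cell markers Cd79a was at least 2.75-fold higher, and Ighm and Ms4a1 were 1.87-fold and 1.67-fold lower. Of the T cell markers Cd4 was at least 2.05-fold lower and Zap70 at least 1.94-fold higher. In such bulk RNA, fewer cells of a type and less RNA per cell cannot be told apart, and the part of these cells in the results was not tested.

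The proteasome consists of a barrel, the 20S core, and caps that feed it. The core stacks outer rings of alpha subunits, which gate entry, on inner rings of beta subunits, some of which cut peptide bonds. The 19S cap recognises ubiquitin chains, removes them and unfolds the substrate with a ring of ATPases. In cells exposed to interferon, and constitutively in many immune cells, 3 catalytic beta subunits are exchanged for Psmb8, Psmb9 and Psmb10, which yields the immunoproteasome and alters which peptides reach MHC class I. Psme1 and Psme2 form the inducible PA28 cap.

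Proteasome transcripts were close to equal on the arrays. Of the 45 genes, 43 were above the floor on at least 1 array and 40 on both, while Psmc4 and Psmd2 were below it on both. Of the 43, 18 had log2 ratios of knockout over wild type above 0 and 25 below 0, with a median of −0.04, beside 0.02 over all 5119 genes in the comparison. With the arrays scaled to the same median, which shifted the median of all genes by −0.11, 34 of the 44 measured genes, Psme3ip1 included, were below 0, as against 26 of 44 as reported, 24 with quantile normalization and 25 with loess. Under 1.3-fold apart were 38 of the 43, or 88.4%, where 72.9% of all genes were. Bright genes differ less between the arrays: the median size of the log2 ratio, whatever its sign, was 0.21 over all genes and 0.15 over those with a signal above 10 times the floor. Among the latter, 29 of 31 proteasome genes were under 1.3-fold apart, beside 86.8% of all 1319 such genes.

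A 2-fold difference was found for 2 of the 43 genes, 1 in each direction. Psmg3 was higher in the knockout, where 1.23% of all genes were 2-fold higher, and Psmc5 was lower, where 1.07% were 2-fold lower. Both entered the comparison only through the array on which they were brighter, and their count of 2 stands beside 2.31% of all genes that were 2-fold apart in either direction. Psmc6 came just short of 2-fold and was the third gene at 1.5-fold or more. These 3 of 43 are 6.98%, where 12.1% of all genes were at least 1.5-fold apart. Among the bright genes it was 1 of 31, Psmc6, where 4.09% of all bright genes were.

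**Figure D1:**
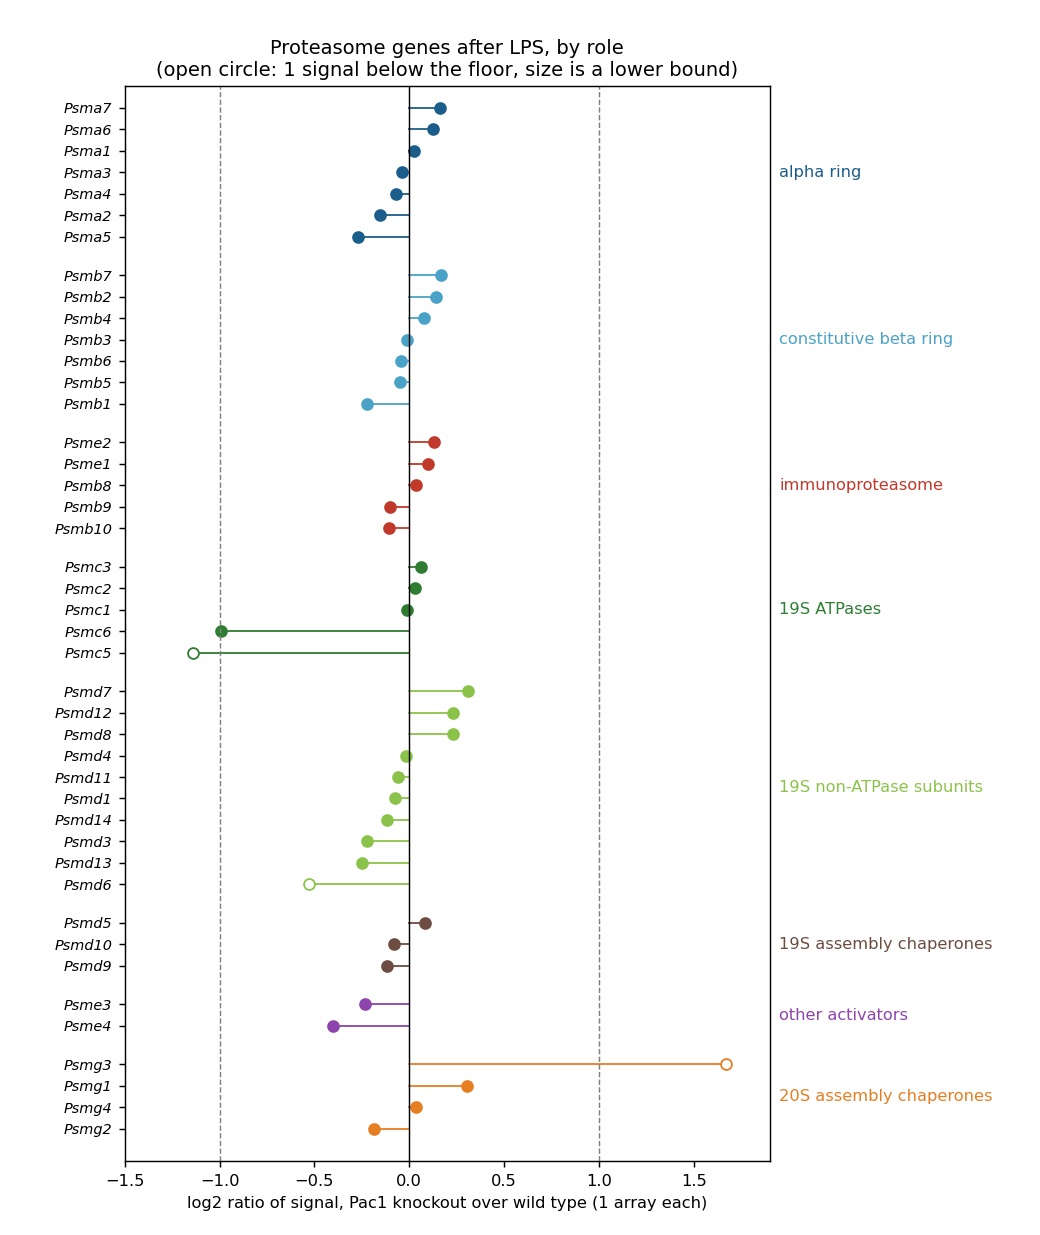
Log2 ratio of signal, Pac1 knockout over wild type, for the 43 measured proteasome genes, grouped by role, from 1 array per genotype. Dashed lines mark 2-fold, open circles mark genes with 1 signal below the floor, and most genes lie near 0 except Psmc6, Psmc5 and Psmg3.

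No error can be had from replicate arrays, and the nearest measure was the spread between different probe sets of 1 gene. For the 520 genes that had at least 2 probe sets over the floor on each array, the log2 ratios of the brightest pair differed by a median of 0.30, and by 0.19 for the 87 genes whose pair was above 10 times the floor. The 90th percentile of these differences was 0.76 for the first and 0.51 for the second. The probe sets of a gene share the arrays and the RNA, so the spread leaves out differences between mice.

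The immunoproteasome genes were all measured above the floor on both arrays, and none was as much as 1.3-fold apart. Psmb8, which replaces Psmb5 as the chymotrypsin-like subunit, was at 2209 on the knockout array against 2153 on the other (log2 ratio 0.04). Psmb9, which replaces Psmb6, was at 1194 against 1282 (−0.10). Psmb10, which replaces Psmb7 as the trypsin-like subunit, was at 3086 against 3325 (−0.11). Of the exchanged catalytic subunits, 1 was thus nominally higher and 2 lower, each by less than the median difference of 0.19 between bright probe sets of a gene. Psme1, the alpha chain of PA28, was at 1519 against 1418 (0.10). Psme2, its beta chain, was at 62.9 against 57.5 (0.13) by the dim probe set that carried its symbol alone. The probe set shared with Psme2b stayed out, so this low signal does not show how abundant the Psme2 transcript was. The 5 log2 ratios had a median of 0.04 and an SD over genes of 0.11. With the arrays scaled to the same median, the group's median was −0.08 and 4 of 5 ratios were below 0. The median over all genes in the comparison was then −0.10.

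The constitutive counterparts were also close to equal. Psmb5 was at 590 against 611 (log2 ratio −0.05). Its probe set has a suffix used where probes may bind other transcripts too, and its second one did not rise above the floor on either array. Psmb6 was at 1311 against 1354 (−0.05). Psmb7 was at 452 against 403 (0.17), also by a probe set with such a suffix. The exchange itself can be followed as the difference of the log2 ratios within a pair, which needs no comparison of levels between probes. It was 0.09 for Psmb8 minus Psmb5, −0.06 for Psmb9 minus Psmb6 and −0.27 for Psmb10 minus Psmb7. The pairs had no common direction. In size, Psmb10 minus Psmb7 was above the median difference of 0.19 between bright probe sets of a gene, and the others were below it. All 3 lay under the 90th percentile of 0.51.

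Against the constitutive subunits as a group, the immunoproteasome median was 0.07 higher on the log2 scale. The constitutive group held 29 measured genes of the core and the cap, with a median of −0.04, 18 of them below 0. The difference of 0.07 is smaller than the median difference of 0.19 between bright probe sets of a gene. That spread belongs to single genes and does not give the error of a group median. The difference between the groups was −0.01 with a floor raised to the 75th percentile, which removed Psme2 and 3 constitutive genes.

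**Figure D2:**
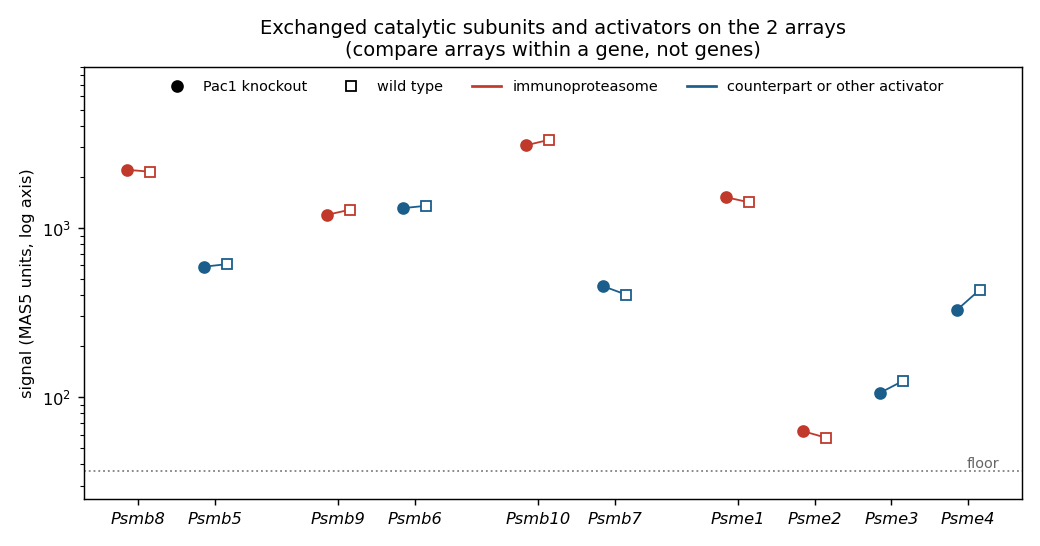
Signals of the exchanged catalytic subunits, placed beside their constitutive counterparts, and of the proteasome activators in Pac1 knockout cells (filled circles) and wild-type cells (open squares), on a log axis. The lines within a gene are nearly level for Psmb8, Psmb9, Psmb10, Psme1 and Psme2, and the steepest belongs to Psme4, at 327 against 432.

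Promoter sequences set the inducible genes beside the constitutive ones. RefSeq promoters (GRCm38.p6, from 250 bases before to 50 after the start) were matched by symbol for 38 of the 45 genes, and a gene with several starts (Psma6, Psmc2 and Psme2) counts as holding a motif if any of its promoters does. They were searched on both strands for the interferon-gamma activated site TTCNNNGAA, the interferon regulatory factor motif (GAAA units parted by any 2 bases), the NF-kB motif, the antioxidant response element core TGACNNNGC, bound by the proteasome regulator encoded by Nfe2l1, and CCAAT. Matches of different motifs did not overlap in these windows (0 cases). The sequences shown are those of Psmb8 and Psme1, the inducible genes with an interferon motif, of the constitutive Psmb5 and Psmb6, and of Psmc6, the bright gene with the lowest ratio. They read 5′ to 3′ along the gene, and capitals mark a match to any motif but CCAAT.

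Psmb8, chr17:34197945-34198244, plus strand: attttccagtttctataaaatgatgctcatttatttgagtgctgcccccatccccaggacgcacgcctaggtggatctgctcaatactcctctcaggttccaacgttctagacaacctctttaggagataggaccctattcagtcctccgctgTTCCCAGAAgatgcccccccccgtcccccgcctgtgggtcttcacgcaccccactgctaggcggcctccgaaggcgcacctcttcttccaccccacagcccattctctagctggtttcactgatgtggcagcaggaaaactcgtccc
Psme1, chr14:55578244-55578543, plus strand: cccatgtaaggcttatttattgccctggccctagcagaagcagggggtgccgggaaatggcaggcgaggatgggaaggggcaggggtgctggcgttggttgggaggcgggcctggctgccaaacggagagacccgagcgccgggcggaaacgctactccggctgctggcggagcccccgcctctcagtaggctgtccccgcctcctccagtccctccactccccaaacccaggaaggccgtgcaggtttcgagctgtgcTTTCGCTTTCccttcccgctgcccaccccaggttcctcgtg
Psmb5, chr14:54617946-54618245, minus strand: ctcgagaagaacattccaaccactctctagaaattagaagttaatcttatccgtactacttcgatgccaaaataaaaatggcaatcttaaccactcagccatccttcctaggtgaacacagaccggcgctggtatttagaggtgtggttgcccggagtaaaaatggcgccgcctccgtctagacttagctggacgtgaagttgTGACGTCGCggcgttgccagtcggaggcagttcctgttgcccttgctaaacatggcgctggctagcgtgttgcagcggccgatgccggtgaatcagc
Psmb6, chr11:70525107-70525406, plus strand: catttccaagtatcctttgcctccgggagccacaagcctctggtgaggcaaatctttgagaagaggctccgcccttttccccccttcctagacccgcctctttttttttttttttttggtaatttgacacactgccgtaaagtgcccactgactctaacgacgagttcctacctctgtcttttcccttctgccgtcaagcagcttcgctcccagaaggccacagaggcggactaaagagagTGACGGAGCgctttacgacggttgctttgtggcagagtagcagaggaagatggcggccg
Psmc6, chr14:45329574-45329873, plus strand: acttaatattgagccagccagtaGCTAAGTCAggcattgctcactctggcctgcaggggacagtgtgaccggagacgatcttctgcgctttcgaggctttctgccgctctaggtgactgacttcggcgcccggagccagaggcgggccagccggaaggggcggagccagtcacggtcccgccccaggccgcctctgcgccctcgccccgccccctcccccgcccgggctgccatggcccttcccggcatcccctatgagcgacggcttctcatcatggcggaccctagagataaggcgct

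The capitals in Psmb8 are an interferon-gamma activated site, which reads as a match on both strands, and those in Psme1 an interferon regulatory factor motif. Each was held by 1 of the 5 immunoproteasome genes. Among the 25 constitutive genes with a promoter, 1 held the first (Psmd2) and 2 the second (Psmb3 and Psmd4), while of all 32851 promoters of the table, counted singly rather than by gene, 8.30% and 3.44% did. The capitals in Psmb5, Psmb6 and Psmc6 are antioxidant response element cores, held by 4 of 25 constitutive genes, 0 of 5 immunoproteasome genes and 12.4% of all promoters. In the same order, the NF-kB motif was in 5 of 25 genes, 0 of 5 genes and 8.46% of promoters, and CCAAT in 10 of 25 genes, 1 of 5 genes (Psmb9) and 37.4% of promoters. A match is only a run of letters and says nothing of binding in these cells.

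In the RefSeq gene order, Tap1 lies between Psmb9 and Psmb8, and Tap2 follows Psmb8. Tap1 and Tap2 encode the transporter that carries the proteasome's peptides to MHC class I. Tap1 was at 3897 against 3922 (log2 ratio −0.01), and Tap2 at 926 against 799 (0.21). All 4 neighbours in this stretch of chromosome 17 were thus under 1.3-fold apart.

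The alpha ring, which shapes the gate of the core, had 3 genes above 0 and 4 below, with a median log2 ratio of −0.04. Psma5 was lowest at 874 against 1055 (−0.27). Psma7 was highest at 573 against 511 (0.16). Between them lay Psma1, Psma2, Psma3, Psma4 and Psma6, from 2457 against 2738 for Psma2 (−0.16) to 1839 against 1685 for Psma6 (0.13). The SD of the ratios over the 7 genes was 0.15, and all 7 were under 1.3-fold apart.

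The constitutive beta ring had the same split, 3 above 0 and 4 below, with a median of −0.01 and an SD over genes of 0.13. Psmb1 was lowest at 438 against 511 (−0.22), and Psmb7, given above, was highest. The structural subunit gene Psmb3 was at 521 against 525 (−0.01), and Psmb2 was at 703 against 638 (0.14). Psmb4 was at 2446 against 2320 (0.08). With the 3 inducible catalytic genes included, the core had 17 genes, all measured on both arrays. By the probe set that stood for each gene, all were under 1.3-fold apart. Those of Psma3, Psmb4, Psmb5 and Psmb7 may bind other transcripts too. A second probe set was 1.48-fold lower for Psmb1 and at least 1.32-fold higher for Psmb4.

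The 19S ATPases, which unfold the substrate and open the core, held the 2 lowest ratios of the 43 genes with the floor used here. With a lower floor or none, Psmd6 of the non-ATPase subunits was lower than both (−1.70, beside −1.25 for Psmc5). Without any floor the ATPase gene Psmc4, at 6.10 against 23.8, was lower still. Psmc6 was at 931 against 1850, a knockout signal of 50.3% of the other (log2 ratio −0.99), by its only probe set. This was 2-fold or more with arrays scaled to the same median (−1.11). Psmc6 was well above the floor on both arrays, and 5 of the 1319 bright genes, itself included, had a ratio as low. Psmc5 was at 33.7, below the floor, against 80.2, at least 2.20-fold lower. Its only probe set was dim and may bind other transcripts too.

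The 3 other ATPases measured on both arrays were close to equal. Psmc1 was at 45.3 against 45.7 (−0.01), Psmc2 at 453 against 443 (0.03) and Psmc3 at 447 against 428 (0.06). The ring assembles from 1 copy of each, and 3 of the 5 measured genes had ratios between −0.01 and 0.06. Psmc4 was not above the floor on either array (6.10 against 23.8), and counted as 2-fold lower with the floor at the 25th percentile or with none.

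**Figure D3:**
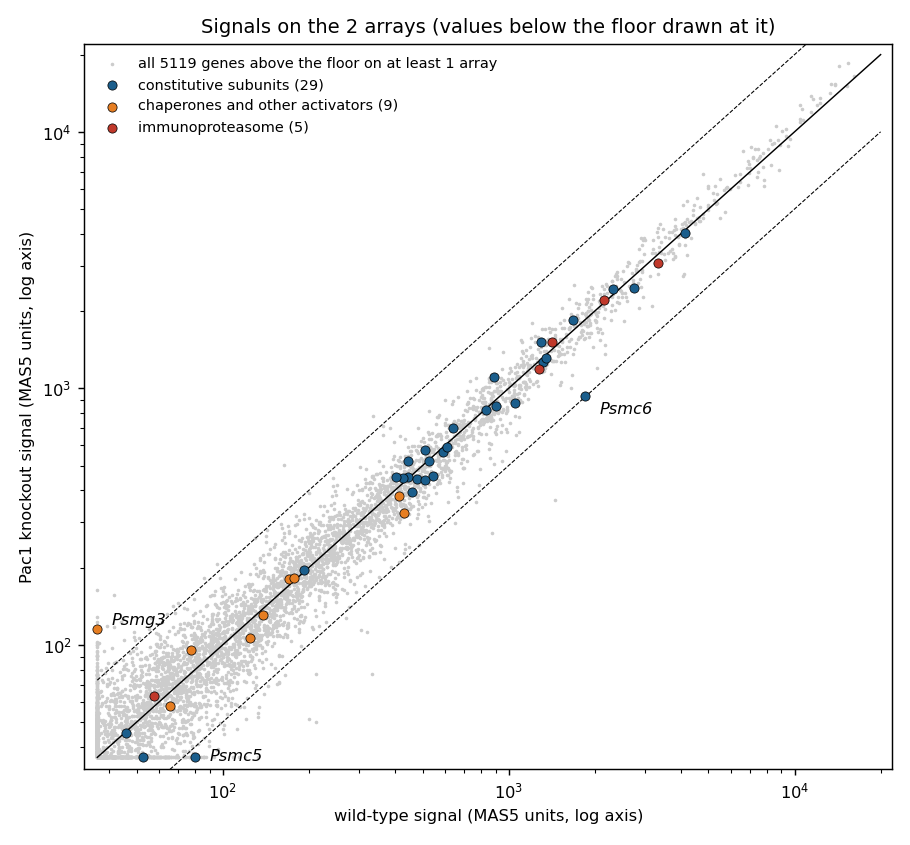
Knockout against wild-type signals on log axes for the 5119 genes of the comparison (grey) and the proteasome genes (coloured), with the line of equality and dashed lines at 2-fold. Psmc6, at 931 against 1850, lies on the lower 2-fold line at a bright signal, while Psmg3 and Psmc5 differ among dim genes where the grey cloud is wide.

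The 19S non-ATPase subunits, the scaffold, ubiquitin receptors and deubiquitinase of the cap, had 3 genes above 0 and 7 below, with a median of −0.07. Psmd7, which partners the deubiquitinase, was highest at 1105 against 890 (0.31). Psmd8 and Psmd12 followed, at 1522 against 1296 and 523 against 445 (0.23 each), Psmd12 by a probe set that may bind other transcripts too. Psmd14, the deubiquitinase, was at 442 against 480 (−0.12), so that it and its partner were on opposite sides of the wild-type level. The ubiquitin receptor gene Psmd4 was at 826 against 836 (−0.02), and the large scaffold gene Psmd1 at 856 against 902 (−0.08). Psmd3 was at 394 against 460 (−0.22), Psmd13 at 456 against 543 (−0.25) and Psmd11 at 1264 against 1317 (−0.06). Psmd6 was lowest, at 52.5 in wild-type cells and below the floor, at 16.2, in knockout cells, and so at least 1.44-fold lower. Psmd2 was below the floor on both arrays (7.30 against 2.30).

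Of the chaperones that assemble the complex, those of the cap were near equal, with Psmd5 at 181 against 170 (0.09), Psmd10 at 130 against 138 (−0.08) and Psmd9 at 381 against 414 (−0.12). Among those of the core, Psmg3 was at 115.7 in knockout cells and at 31.6, below the floor, in wild-type cells, at least 3.18-fold higher from its only probe set. Its partner Psmg4 was at 182 against 178 (0.03). Psmg1 was at 95.6 against 77.5 (0.30), and Psmg2, with which it pairs, at 57.5 against 65.3 (−0.18). The pairs thus showed no common shift.

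The activators other than PA28 alpha and beta were both nominally lower, under each alternative that measured them too. Psme3, the nuclear PA28 gamma, was at 106 against 125 (−0.23). Psme4, the large activator PA200, was at 327 against 432 (−0.40), by a probe set with no such suffix. Set against the inducible caps, the log2 ratio of Psme1 was 0.33 above that of Psme3, and that of Psme2 was 0.36 above it. Both differences are near the median of 0.30 between probe sets of a gene and under its 90th percentile of 0.76, and Psme2 and Psme3 were dim.

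A probe set with a suffix counted here as the cross-hybridising kind stood for 8 of the 45 proteasome genes, namely Psma3, Psmb4, Psmb5, Psmb7, Psmc3, Psmc5, Psmd9 and Psmd12. The suffix letters s, x, f, r, g and i were counted alike, and Psmd9 had the letter r. Cross-hybridisation itself was not measured. Of these 8 genes, 6 had no probe set of another kind. Of the 47 genes, 6 had several probe sets. Psmc3 had 3 above the floor, at 447 against 428, 245 against 222 and 151 against 169 (0.06, 0.14 and −0.16), all with a suffix counted here. The second Psmb1 probe set was at 114 against 168 (−0.56), lower like the first (−0.22) but by more. The second Psmb4 probe set was at 48.1 against 24.0, at least 1.32-fold higher. The further probe sets of Psmb1, Psmb4, Psmb5, Psmd11 and Psmd13 were not above the floor on either array. A gene can thus differ by 0.3 on the log2 scale between its own probes, as Psmc3 and Psmb1 did.

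Genes that work with the proteasome were taken from fixed lists. Of 13 measured associated factors, 6 were above 0 and 7 below, with 0 at 1.5-fold and a median of −0.08. Over all genes, 12.1% were at least 1.5-fold apart. Pomp, the maturation factor of the core, was lowest at 1646 against 2113 (−0.36). Nfe2l1, the transcription factor that restores proteasome synthesis, was highest at 132 against 92.3 (0.51). Both were under 1.5-fold apart, and Nfe2l1 was dim.

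Ubiquitin-conjugating and ligating enzymes had 2 of 9 above 0 and a median of −0.18. Ube2d2a, a broad ubiquitin-conjugating enzyme, was lowest at 210 against 415 (−0.98, or −0.68 averaged over its probe sets). It was the 1 gene of these 9 at 1.5-fold or more, where 12.1% of all genes were. Ube2r2 was highest at 2224 against 1974 (0.17). In class I peptide loading, 5 of 8 genes were above 0 and 0 were at 1.5-fold, with a median of 0.18. Tapbp (tapasin) was lowest at 3268 against 3815 (−0.22), but above 0 when averaged over its probe sets (0.06). The chaperone gene Canx was highest at 294 against 205 (0.52, or 0.14 averaged over its probe sets).

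Interferon-gamma signalling and class I regulators, through which the immunoproteasome genes are induced, had 2 of 6 above 0 and a median of −0.03. Irf8 was highest at 818 against 528 (0.63) and Jak2 lowest at 395 against 507 (−0.36). Irf1, an activator of Psmb9 and Tap1, was at 1427 against 1534 (−0.10). Irf8 was the 1 gene of these 6 at 1.5-fold or more, where 12.1% of all genes were.

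**Figure D4:**
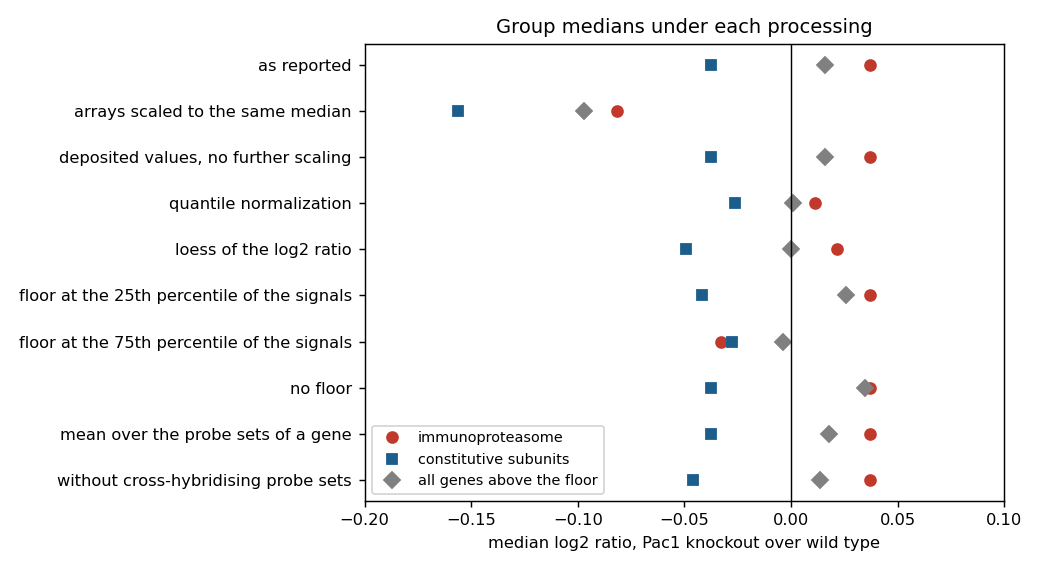
Median log2 ratio of the immunoproteasome genes (red circles), the constitutive subunits (blue squares) and all genes above the floor (grey diamonds) under the reported processing and 9 alternatives. All medians lie between −0.16 and 0.04, the immunoproteasome median is above the constitutive one except with the floor at the 75th percentile, and with the arrays scaled to the same median all 3 lie below 0.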

How the data were processed

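The data were 2 Affymetrix arrays, 1 Pac1 knockout and 1 wild type, with 12654 probe sets. The authors deposited MAS5 intensities on a linear scale, per the submitters' processing notes, which give no version or settings. RNA was copied from a poly(T) primer and amplified by a small-sample method, per the labels' protocols, which weights 3′ ends, and levels of different probe sets were not compared. Probe sets were named from the platform annotation: 10298 had 1 symbol, 363 several and 1993 none. All 47 genes matched RefSeq by Entrez identifier, with 0 symbols changed.

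A common 2% trimmed mean was set for both arrays and hardly altered the deposited values. Signals below 36.4, the median over both arrays, were set to that floor, and log2 ratios were taken with pandas 2.3.3 and numpy 2.4.6. The probe set with the highest mean signal stood for a gene. Where only 1 array was above the floor, its signal divided by the floor is a lower bound, written "at least". Sizes of 2-fold and 1.5-fold were counted, and no test was run. The number of arrays limits the precision. The calculation was tested on simulated data.

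Values were named for the immunoproteasome genes, their counterparts, the highest and lowest of each list of proteasome and related genes, genes 1.5-fold apart and genes with several probe sets. Cell markers are given mostly by counts. Further genes were named with their values in view. The members, lists and alternatives were chosen with earlier results of these data known. The 9 alternatives changed the scaling, the floor, or the probe set of a gene.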

Additional observations from a re-analysis of the deposited data

How the results depend on the processing

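No paired analysis was possible because there was 1 array per genotype, and no replicate could be left out. There were 9 alternatives. Medians kept within 0.30, the spread between probe sets of a gene, in each of them. That spread belongs to single genes and is too wide to judge a median over several genes. Medians near 0 changed sign between the alternatives. The immunoproteasome median ran from −0.08 to 0.04, the constitutive median from −0.16 to −0.03 and their difference from −0.01 to 0.08. Of the 44 genes, 2 were 2-fold apart and 3 were 1.5-fold apart as reported. The counts were 4 and 5 with the floor at the 25th percentile, 0 and 1 with the floor at the 75th percentile, which left 36 genes, and 5 and 6 with no floor. All genes in the comparison then numbered 7128, 2675 and 8210. Their shares at 2-fold and 1.5-fold were counted only with the floor used here (2.31% and 12.1%). The counts at other floors therefore have no share of all genes beside them. The lower floors let in Psmd6 and Psmc4, and no floor also Psmd2, all dim. Without probe sets of the cross-hybridising kind 1 was 2-fold apart, since Psmc5 had no other. With the same median 3 were, Psmc6 among them. Psmc6 ran from −1.11 to −0.97 and Psmg3, where measured, from 1.61 to 1.87. Over the 70 genes followed singly (each measured proteasome gene, Dusp2, Tap1, Tap2, Irf1 and the highest and lowest of each further list), 597 of the alternative values stayed on their side of 2-fold and, if under it, within 0.30 of the reported value, 7 passed 2-fold, 1 (the stromal marker gene Acta2) fell under it, and 4 moved by more, among them Psmb4 at 0.40 without such probe sets. Signal over background limits Psmg3, Psmc5 and Psmd6, whose sizes depend on the floor.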
